A study of Mus musculus with 10 samples.

Results

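Adm, Vegfa, Pgf and Epo encode 4 secreted factors that act on blood vessels or on red cell formation, and they were followed here in mouse hepatocytes kept in hypoxia or normoxia. They were taken as all probe sets that the platform annotation assigns to 1 of these 4 symbols. That gave 4 probe sets, 1 per gene, of 12488 on the array, and 4 of 8252 genes with a symbol of their own. The 10 arrays, 1 per sample of total RNA, fell into 4 groups. There were 3 hypoxic arrays labelled HIF-1alpha null, 3 hypoxic arrays of adeno-treated wild-type cells, 2 normoxic arrays of adeno-treated cells and 2 normoxic arrays of untreated cells, and no normoxic null sample. The titles of the hypoxic adeno-treated samples name no genotype, and wild type is the name used here for that group. The labels name no vector and do not say whether the null cells received it, how HIF-1alpha was removed, which genotype the normoxic cells had, or the oxygen level and duration. They number the samples 1 to 3 within each hypoxic group and 1 to 2 within each normoxic group and do not say whether these were separate cultures, so p-values measure the spread between arrays, which may be technical.

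In low oxygen the alpha subunits of the hypoxia-inducible factors, HIF-1alpha and HIF-2alpha, escape destruction, pair with ARNT and bind short DNA elements near their target genes. Adm encodes adrenomedullin, a peptide that widens vessels and keeps the vessel wall tight, and Vegfa encodes the principal growth factor of endothelial cells. Pgf encodes placental growth factor, a relative of VEGF-A that binds the receptor FLT1 but not KDR. Epo encodes erythropoietin, the hormone that keeps red cell precursors alive; it is made by the liver before birth and mainly by the kidney afterwards.

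The 250 bases before the most upstream annotated start of each gene are shown because 3 of the 4 genes changed together between hypoxic and normoxic arrays. They are RefSeq sequence of build GRCm38.p6, written 5′ to 3′ on the gene's own strand, and capitals mark the HIF core letters ACGTG or GCGTG on either strand, which read CACGT or CACGC when they lie on the opposite strand. The windows are chr7:110627407-110627656 on the plus strand for Adm, chr17:46032378-46032627 on the minus strand for Vegfa, chr12:85177314-85177563 on the minus strand for Pgf and chr5:137485817-137486066 on the minus strand for Epo.
Adm: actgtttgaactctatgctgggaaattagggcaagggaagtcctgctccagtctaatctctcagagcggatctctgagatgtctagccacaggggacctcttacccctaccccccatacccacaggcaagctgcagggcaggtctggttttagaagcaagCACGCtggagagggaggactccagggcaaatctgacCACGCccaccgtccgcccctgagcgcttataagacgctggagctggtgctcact
Vegfa: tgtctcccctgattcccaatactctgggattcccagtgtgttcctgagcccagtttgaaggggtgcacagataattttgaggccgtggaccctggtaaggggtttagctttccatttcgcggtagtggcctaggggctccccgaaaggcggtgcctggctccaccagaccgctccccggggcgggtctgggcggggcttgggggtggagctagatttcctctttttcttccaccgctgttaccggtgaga
Pgf: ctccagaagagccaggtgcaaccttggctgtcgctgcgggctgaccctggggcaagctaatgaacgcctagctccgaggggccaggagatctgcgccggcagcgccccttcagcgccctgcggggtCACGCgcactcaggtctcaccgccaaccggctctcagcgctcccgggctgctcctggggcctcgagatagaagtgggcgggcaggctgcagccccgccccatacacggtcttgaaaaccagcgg
Epo: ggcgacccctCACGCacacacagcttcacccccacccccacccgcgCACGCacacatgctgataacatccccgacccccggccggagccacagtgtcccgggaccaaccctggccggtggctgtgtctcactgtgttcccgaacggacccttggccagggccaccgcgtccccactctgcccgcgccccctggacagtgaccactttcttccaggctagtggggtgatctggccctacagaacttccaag

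The Adm window held 2 matches, both GCGTG on the opposite strand, 90 to 86 and 54 to 50 bases before the start. The Pgf window held 1, 124 to 120 bases before the start, and the Epo window held 2, at 240 to 236 and 204 to 200 bases. The Vegfa window held 0, while the window of its second annotated start, chr17:46025164-46025413, held 2 (GCGTG on the same strand at 218 to 214 and ACGTG on the opposite strand at 211 to 207 bases), and that of the second Pgf start held 0. Of 27025 mouse promoter windows of this length, 38.6% held at least 1 match and 16.8% held 2 or more. The letters therefore describe these windows and do not set the 4 genes apart: Epo, which passed no test below, held as many as Adm.

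Values are the authors' scaled intensities on a linear scale, which compare arrays for 1 probe set but not 1 probe set with another. The cells had the markers of their label: all 10 measured hepatocyte genes passed the brightness filter, with Alb at a mean of 10713 and Apoa1 at 8275 over all arrays. Of 11 measured endothelial genes, Pecam1 (mean 48.8), Eng (653) and 1 of the 2 Flt1 probe sets (59.7) passed. No probe set of the other endothelial genes did, at means of at most 36.3. Stellate cell and fibroblast markers were present too: 14 of 17 probe sets passed, with Acta2 at 2521, Tagln at 1991 and Sparc at 1195, while Vim (38.8) did not pass. The samples were thus not shown to hold hepatocytes alone. Both Hif1a probe sets, the check of the targeted gene, read higher, without passing, on the arrays labelled null. The first averaged 1169 ± 422 there and 792 ± 147 on hypoxic wild-type arrays (SD, n = 3 each), and the second 1247 ± 400 and 837 ± 224 (SD, n = 3 each; limma adjusted p = 0.999 for both). With the sample number as a block they did not pass between these groups either (limma adjusted p = 0.190 and 0.0967). Against normoxic adeno-treated cells both were called higher in cells labelled null with the block, by 0.85 and 1.03 on the log2 scale (limma adjusted p = 0.0155 and 0.00364), and against all normoxic arrays by 0.76 and 0.90 (limma adjusted p = 0.00702 and 0.00183). The adeno-treated call of the first probe set was lost without either adeno-treated array or the null-labelled number 1 or 2, at a limma adjusted p of up to 0.121, and the other 3 calls held with any 1 array or both hypoxic number 3 arrays left out. No source used here places these probes relative to the deleted part, so the reading checks nothing, and the group is called by its label throughout. The hypoxic number 3 arrays stood apart: their 3 probe sets for 18S ribosomal RNA averaged 12.18 on the log2 scale for the array labelled null and 12.33 for wild type, against 7.38 to 8.97 on the other 4 hypoxic arrays and 5.98 to 10.25 on the 4 normoxic arrays. Results are therefore also given without these arrays.

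Adm read 1481.5, 2089.7 and 2602.1 on the hypoxic arrays labelled null and 1661.7, 2612 and 2928.1 on the hypoxic wild-type arrays (numbers 1, 2 and 3). It read 78.7 and 89.7 on the normoxic adeno-treated arrays and 97.5 and 96.3 on the normoxic untreated arrays. Every hypoxic array was thus far above every normoxic one, as the plot of intensities by array shows. Group means were 2058 ± 561 for arrays labelled null, 2401 ± 659 for hypoxic wild type (SD, n = 3 each), 84.2 ± 7.78 for adeno-treated and 96.9 ± 0.849 for untreated normoxic arrays (SD, n = 2 each).

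**Figure D1:**
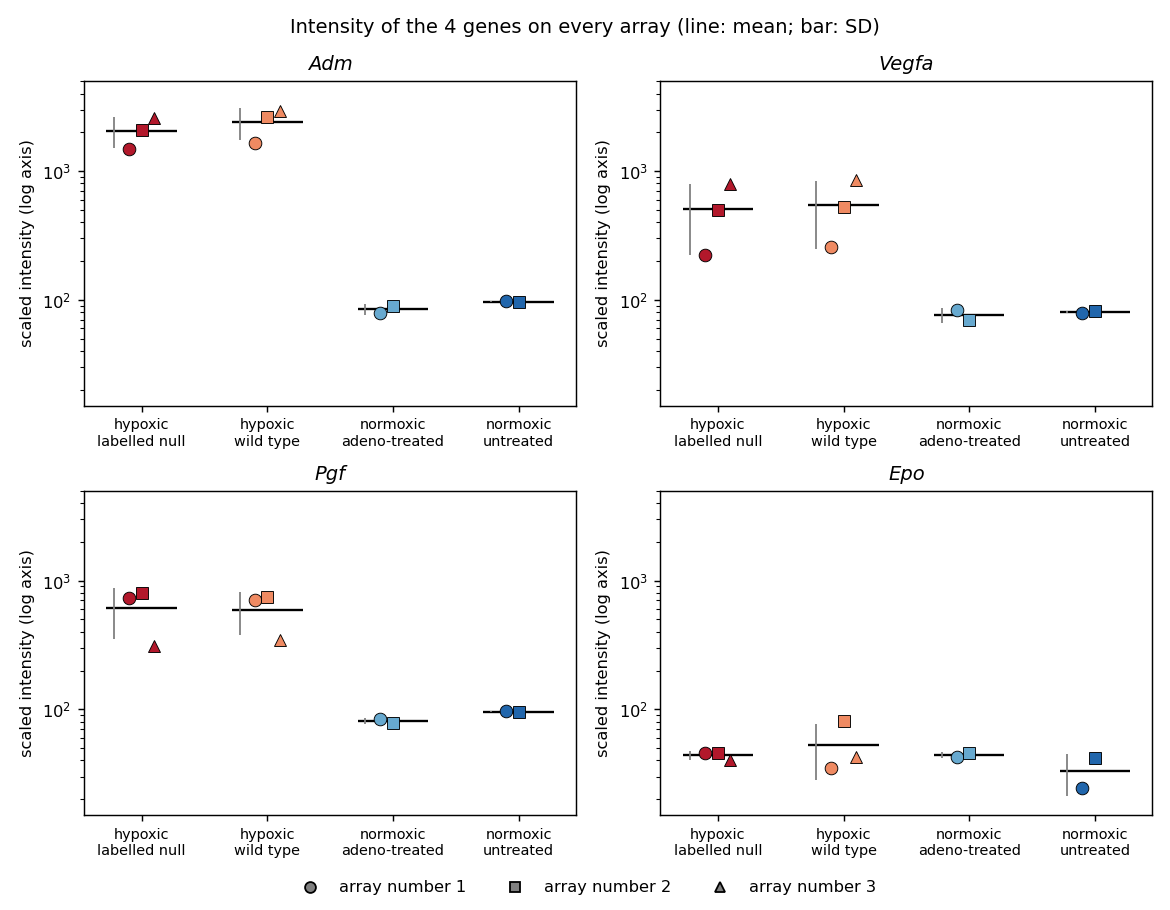
Scaled intensity (log axis) of Adm, Vegfa, Pgf and Epo on each of the 10 arrays by group; symbols give the array number, horizontal lines group means and grey bars SD. Adm, Vegfa and Pgf lie between 224.6 and 2928.1 on all hypoxic arrays and between 69.2 and 97.5 on all normoxic arrays, and Epo overlaps between groups.

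Vegfa read 224.6, 501.2 and 790.2 on the arrays labelled null and 257.9, 525.7 and 849.7 on the hypoxic wild-type arrays. On normoxic arrays it read 83 and 69.2 in adeno-treated and 79.4 and 81.1 in untreated cells. The number 1 arrays were the lowest and the number 3 arrays the highest of each hypoxic group, and both number 1 arrays still lay above all 4 normoxic arrays. The means were 505 ± 283 (labelled null) and 544 ± 296 (wild type, SD, n = 3 each), against 76.1 ± 9.76 (adeno-treated) and 80.3 ± 1.20 (untreated, SD, n = 2 each).

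Pgf read 737.8, 797.9 and 310 on the arrays labelled null and 700.5, 738.9 and 342.3 on the hypoxic wild-type arrays. It read 84.5 and 77.8 in normoxic adeno-treated and 96.3 and 94.9 in normoxic untreated cells. Here the number 3 arrays were the lowest of each hypoxic group, the opposite of Vegfa, and again no hypoxic array overlapped a normoxic one. Mean Pgf intensity was 615 ± 266 (labelled null) and 594 ± 219 (wild type, SD, n = 3 each), against 81.2 ± 4.74 (adeno-treated) and 95.6 ± 0.990 (untreated, SD, n = 2 each).

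Epo read 45.6, 45.7 and 40.1 on the arrays labelled null and 35, 80.9 and 42.4 on the hypoxic wild-type arrays. In normoxia it read 42.7 and 45.7 in adeno-treated and 24.6 and 41.5 in untreated cells. Hypoxic and normoxic values overlapped, with the highest on the wild-type number 2 array and the lowest on the untreated number 1 array. Its mean over all arrays, 44.4, was just above the brightness filter at 40.1, and 42.0% of all probe sets had a lower mean. Adm, Vegfa and Pgf passed that filter with means of 1374, 346 and 398. The normoxic values of these 3 genes, 69.2 to 97.5, were themselves above the filter, so they did not pass through the hypoxic arrays alone.

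The first comparison set hypoxic wild-type cells against normoxic cells where both had been adeno-treated, which asks what hypoxia did. In limma, fitted across 7453 probe sets with 6 residual degrees of freedom and a threshold of 0.05 on the adjusted p, Adm and Pgf were higher in hypoxic wild type, where 0.322% of all probe sets were called higher and 0.0134% lower. Adm rose by 4.72 on the log2 scale (SE 0.28, 95% interval 4.09 to 5.35, 26.4-fold, limma adjusted p = 8.29e-05), which placed it at rank 1 of 7453 both by p and by size. Pgf rose by 2.72 (SE 0.43, interval 1.78 to 3.67, 6.61-fold, limma adjusted p = 0.0299). Vegfa differed by 2.61 (SE 0.54, interval 1.41 to 3.81, 6.11-fold) and did not pass, at a limma adjusted p of 0.122, although it was higher on 3 of 3 arrays. Epo differed by 0.15 (interval -0.67 to 0.98, limma adjusted p = 0.972).

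The sample numbers were taken as pairing the arrays, which the labels do not state. Across probe sets, same-numbered arrays of the 2 hypoxic groups deviated together (r = 0.541 to 0.677). Normoxic number 1 arrays went with hypoxic number 1 (r = 0.228 to 0.357). However, normoxic number 2 arrays went more with hypoxic number 3 (r = 0.154 to 0.253) than with hypoxic number 2 (0.103 to 0.173). Results with the block rest on this pairing. With the number as a block, Vegfa passed in hypoxic wild type against normoxic adeno-treated, with a change of 2.21 (SE 0.30, interval 1.54 to 2.87, limma adjusted p = 0.00509), in a fit that called 1.48% of all probe sets higher and 0.725% lower. Adm changed by 4.54 and Pgf by 3.12 (SE 0.15, interval 2.78 to 3.46, 8.67-fold) in that fit, with limma adjusted p of 1.02e-06 and 7.55e-06, and Epo by 0.23 (limma adjusted p = 0.754). No normoxic array has number 3, so in this fit the hypoxic number 3 arrays bear on the comparison with normoxia only through the difference of the 2 hypoxic groups. Without the number 3 arrays of both hypoxic groups and without the block, Adm changed by 4.56, Pgf by 3.08 (limma adjusted p = 0.000241 for both) and Vegfa by 2.21 (limma adjusted p = 0.108).

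Hypoxic cells labelled null were set against the same 2 normoxic adeno-treated arrays, which joins hypoxia, genotype and any difference in vector treatment. The 2 hypoxic groups share these control arrays, so their changes are given side by side and not as repeats. Adm rose by 4.50 in cells labelled null (22.6-fold, limma adjusted p = 0.000174) and Pgf by 2.74 (6.67-fold, limma adjusted p = 0.0287), where 0.349% of probe sets were called higher and 0.0939% lower. Vegfa differed by 2.49 (SE 0.54, 5.61-fold, limma adjusted p = 0.120) and Epo by -0.01 (limma adjusted p = 0.997). With the replicate block Vegfa passed here too, with a change of 2.09 (limma adjusted p = 0.00511), where 2.94% were called higher and 2.87% lower. Without the hypoxic number 3 arrays Pgf changed by 3.17 (limma adjusted p = 0.000362) and Vegfa by 2.08 (limma adjusted p = 0.119).

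Which array was left out decided the Pgf call without the block. Against the adeno-treated arrays the limma adjusted p of Pgf in wild type lay between 0.0706 and 0.414 when wild-type number 1 or 2, either adeno-treated or either untreated array was left out, the highest without adeno-treated number 2. In cells labelled null it lay between 0.0545 and 0.377 without the null-labelled number 1 or 2, the wild-type number 2, or any 1 normoxic array. The size moved less, between 2.53 and 3.08 in wild type and between 2.49 and 3.17 in cells labelled null. With the block the highest limma adjusted p of Pgf over the same omissions was 0.000636. Adm passed under every omission, with a highest limma adjusted p of 0.00302 in wild type and 0.00665 in cells labelled null. Vegfa with the block lost its call only without adeno-treated number 2, at limma adjusted p of 0.0955 in wild type and 0.0778 in cells labelled null. Without the block Vegfa passed in wild type when number 1 of either hypoxic group was left out (0.0444 and 0.0483) and in cells labelled null when their number 1 was (0.0415, limma adjusted p).

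**Figure D2:**
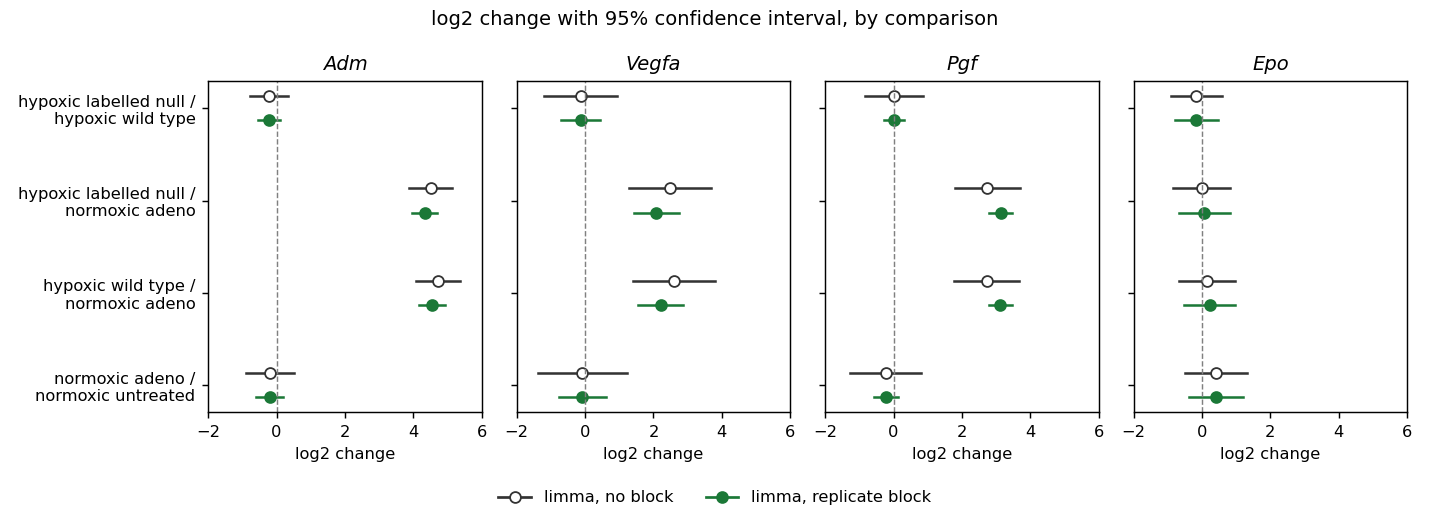
Log2 change (x axis) of each gene in 4 comparisons (y axis), with 95% confidence intervals, from limma without (open points) and with (filled points) the sample number as a block. Adm, Vegfa and Pgf lie between 2.09 and 4.72 in both comparisons with normoxia, and every interval of the other 2 comparisons spans 0.

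With all 4 normoxic arrays as the baseline, 3 of the 4 genes passed in each hypoxic group. This baseline includes the untreated arrays, so the comparison joins hypoxia and any effect of the adeno treatment. In wild type Adm rose by 4.62 (limma adjusted p = 1.22e-05), Pgf by 2.61 (limma adjusted p = 0.00980) and Vegfa by 2.57 (limma adjusted p = 0.0419), where 0.47% of probe sets were called higher (3.03% with the block). In cells labelled null Adm rose by 4.40 (limma adjusted p = 3.89e-05), Pgf by 2.63 (limma adjusted p = 0.00935) and Vegfa by 2.45 (limma adjusted p = 0.0372), where 0.631% were called higher (5.29% with the block). The Vegfa calls were narrow. They were lost without the brightness filter (limma adjusted p = 0.0610 in wild type and 0.0533 in cells labelled null) and with no intensity trend in the fit (0.0586 and 0.0530). They were also lost without any 1 of the normoxic arrays, the number 2 array of either hypoxic group or the number 3 array of the group itself, at a limma adjusted p of up to 0.186 in wild type and 0.189 in cells labelled null. Without the number 3 arrays of both hypoxic groups the call was lost in wild type (limma adjusted p = 0.0515) and kept in cells labelled null (0.0433). With the block Vegfa passed under every omission, at a highest limma adjusted p of 0.0237 and 0.0186. Epo changed by 0.36 in wild type and 0.19 in cells labelled null and passed in neither (limma adjusted p = 0.775 and 0.832).

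An exact 2-sided permutation test, which borrows no spread from other probe sets, was run on the same log2 values. It pooled the hypoxic groups and the normoxic groups and did not use the sample number. Over 6 hypoxic and 4 normoxic arrays the mean log2 difference was 4.51 for Adm, 2.51 for Vegfa and 2.62 for Pgf, each with an exact permutation p of 0.00952. This is the smallest that the 210 splits allow, and the complete separation given above fixes it, so it adds nothing to that separation. For Epo it was 0.27 (exact permutation p = 0.381). These were 4 tests, left unadjusted. Complete separation of the 6 hypoxic from the 4 normoxic arrays, which 3 of the 4 genes showed, was found upwards in 2.63% of all probe sets tested.

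The sizes of the changes were then compared between genes as ratios within an array, over 6 pairs. The Adm minus Vegfa log2 value averaged 2.20 on hypoxic and 0.20 on normoxic arrays, and Adm also changed more than Pgf, by 1.89 (exact permutation p = 0.00952, 0.0114 adjusted over the pairs, for both). Adm, Vegfa and Pgf each changed more than Epo, by 4.24, 2.24 and 2.34 (exact permutation, adjusted p = 0.0114 each). These are changes of signal in different probe sets. In all of these pairs the exact permutation p was again the smallest that the splits allow. Ratios that did not overlap between hypoxic and normoxic arrays fix it, so it adds nothing to that separation. Epo read near the brightness filter (mean 44.4, filter 40.1), so a small change of its RNA cannot be told from a probe set too dim to show one. Vegfa and Pgf differed by -0.11 (exact permutation p = 0.838), with the ratio spread from -1.70 to 1.34 on the hypoxic arrays and from -0.26 to -0.02 on the normoxic ones. That pair depends on the number 3 arrays: without them Pgf changed more than Vegfa, with a difference of -0.90 (exact permutation, adjusted p = 0.0286, again the smallest that the remaining arrays allow).

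The arrays labelled null were next set against hypoxic wild type, which joins genotype under hypoxia and any difference in vector treatment. None of the 4 genes passed: limma called 0% of probe sets higher and 0% lower (130 higher and 129 lower at an unadjusted p under 0.05), and 0.0134% higher and 0.0939% lower with the block. Adm differed by -0.22 (interval -0.79 to 0.35), Vegfa by -0.12 (-1.19 to 0.95), Pgf by 0.01 (-0.83 to 0.86) and Epo by -0.16 (-0.90 to 0.57), with a limma adjusted p of 0.999 for each. The block left these differences as they were and narrowed the intervals to -0.54 to 0.10 for Adm, -0.69 to 0.44 for Vegfa, -0.27 to 0.30 for Pgf and -0.80 to 0.47 for Epo (limma adjusted p = 0.690, 0.938, 0.984 and 0.920). These bounds, not equality, are what the comparison gives: a lower Adm by up to 0.54 or a lower Vegfa by up to 0.69 on the log2 scale lies within them.

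Within pairs of the same number, Adm was lower on the array labelled null in 3 of 3 pairs, by differences of -0.17, -0.32 and -0.17 for numbers 1, 2 and 3. Vegfa was also lower in 3 of 3, by -0.20, -0.07 and -0.10. Pgf went both ways, at 0.07, 0.11 and -0.14, and so did Epo, at 0.34, -0.76 and -0.07. The 1 negative Pgf pair was number 3. Without both number 3 arrays the differences were -0.24 for Adm, -0.13 for Vegfa, 0.092 for Pgf and -0.21 for Epo.

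The 2 normoxic groups differ by the adeno treatment, and none of the 4 genes passed between them in limma. That fit called 0% of probe sets higher and 0% lower (309 higher and 310 lower at an unadjusted p under 0.05) and 0.107% and 0.134% with the block. Adeno-treated minus untreated, Adm differed by -0.20 and Pgf by -0.23, and the 2 groups did not overlap for either, which 24.4% of all probe sets showed in that direction. Epo differed by 0.41 without overlap, as 24.6% of probe sets did upwards, and Vegfa by -0.08 with overlap. The limma adjusted p lay between 0.827 and 0.984 for the 4 genes. The 95% intervals were wide, at -0.89 to 0.50 for Adm, -1.39 to 1.23 for Vegfa, -1.26 to 0.81 for Pgf and -0.49 to 1.31 for Epo. They give bounds and not equality.

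For Adm, Vegfa and Pgf the sample number went with larger differences among hypoxic arrays than the genotype label did. Vegfa was higher on number 3 than on number 1 by 1.79 on the log2 scale among arrays labelled null and by 1.70 in wild type, with a mean of 1.75 that ranked 51 of 7453 from the highest. Adm was higher on number 3 by 0.81 and 0.82 (rank 503). Pgf was lower on number 3 than on number 1, by -1.24 and -1.02 (rank 420 from the lowest), and lower than on number 2 by -1.35 and -1.10 (rank 190 from the lowest). Epo had no common direction, at -0.17 and 0.25.

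Markers of other cells moved with the same numbers. All 12 stellate cell and fibroblast genes on the list had a probe set, 14 of their 17 probe sets passed the filter, and their summed intensity was 17855, 13102 and 6584 on arrays labelled null and 19375, 14825 and 6889 in hypoxic wild type (numbers 1, 2 and 3), against 11653 and 12608 in adeno-treated and 11026 and 10599 in untreated normoxic cells. The sum on number 3 was below every normoxic array, and Pgf was lowest there among hypoxic arrays. Biliary markers, 4 measured genes, summed to 3207, 2316 and 1208 on arrays labelled null and 4201, 2134 and 853 in wild type, against 432 to 1219 on the 4 normoxic arrays. Most of that sum was Cldn4 (means 1322 labelled null, 1188 wild type, 188 normoxic) and 1 Krt19 probe set (766, 1004 and 440). Krt7 stayed level (108, 105 and 98.6) and Epcam did not pass the filter, so the sum does not speak for the list as a whole. Hepatocyte markers averaged 10.23, 10.37 and 10.92 (log2) on arrays labelled null and 10.24, 10.60 and 11.18 in wild type, highest on number 3 as Vegfa and Adm were, against 10.82 to 11.11 in normoxia. Endothelial probe sets, 16 of 11 genes, summed to 1352.7, 940.7 and 701.1 on arrays labelled null and 1547, 962.4 and 769.3 in wild type, against 754.9 to 918.9 in adeno-treated and 1102.4 to 1248 in untreated cells. Macrophage sums also fell by number, at 1087.2, 929.3 and 777.8 (labelled null) and 1522.8, 1036.7 and 791.4 (wild type). So did smooth muscle sums, from 7868.6 to 2216.9 and from 7899.8 to 2348.2, on a list that shares Acta2 and Tagln with the stellate cell list. Erythroid sums had no common direction. The fall on number 3 was thus not particular to stellate cell and fibroblast markers. In bulk RNA fewer cells of a type and less RNA per cell cannot be told apart, and the part of these cells in the levels of Pgf, Vegfa and Adm was not tested. Within number 1 and number 2 alone, hypoxic wild type exceeded the adeno-treated array of the same number by 2.98 and 3.17 for Pgf, 1.58 and 2.84 for Vegfa and 4.32 and 4.79 for Adm. For arrays labelled null these differences were 3.06 and 3.28 for Pgf, 1.39 and 2.78 for Vegfa and 4.16 and 4.47 for Adm.

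**Figure D3:**
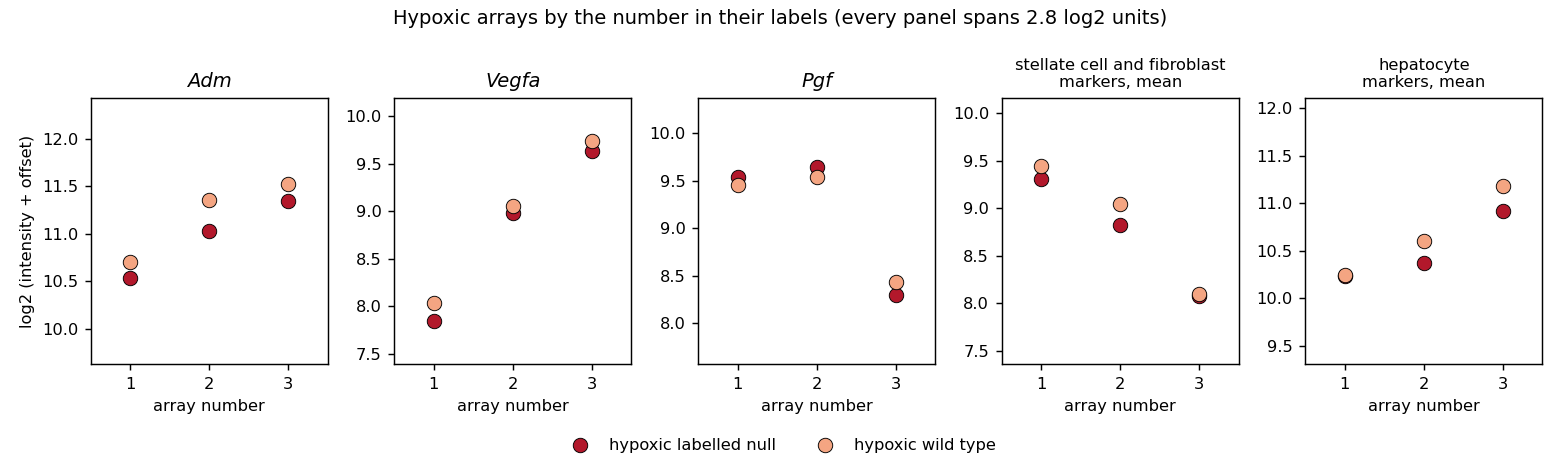
Log2 of intensity plus 4.7 on the 6 hypoxic arrays by the number in their labels (x axis), for Adm, Vegfa, Pgf and the means of 2 marker lists; each panel has its own range of equal height. Arrays of the same number lie close together, Pgf and the stellate cell and fibroblast markers are lowest on number 3, and Vegfa, Adm and the hepatocyte markers are highest there.

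The genes most like each factor across the 10 arrays, by Pearson r of the log2 values, are given as a description, since these arrays fall into hypoxic and normoxic sets. Adm was followed most closely by Atf3 (0.992), a stress-induced transcription factor, the kinase gene Pim1 (0.989), the glucose transporter gene Slc2a1 (0.982), the clock-linked repressor gene Bhlhe40 (0.977) and Tiparp (0.974). Vegfa was followed by Sat1 (0.991), a polyamine-degrading enzyme, Ifrd1 (0.982), another Atf3 probe set (0.980), the phosphatase gene Dusp1 (0.980) and Gadd45a (0.972), a stress-response gene. Pgf had other neighbours: Ralb (0.968), the tight-junction gene Cldn4 (0.965), Ate1 (0.963), Lefty1 (0.953) and F3 (0.947), which encodes tissue factor, the starter of blood clotting. Cldn4 is also on the biliary marker list above. For Epo the highest values were lower, from 0.834 for Rela to 0.878 for Uvrag.

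The receptors through which the factors act are given by whether their probe sets passed the brightness filter. Kdr, the main signalling receptor of VEGF-A, averaged 36.3 over all arrays and did not pass the filter, nor did Calcrl (4.58), the adrenomedullin receptor, its partners Ramp2 (29.9) and Ramp3 (39.8), and 1 of 2 Flt1 probe sets (38.3). The other Flt1 probe set averaged 62.5 ± 14.9 on arrays labelled null, 63.4 ± 6.18 in hypoxic wild type (SD, n = 3 each) and 44.6 ± 4.67 in adeno-treated normoxic cells (SD, n = 2), and it passed in no comparison. The Flt1 probe set under the filter read 18.8 to 103.9 on arrays labelled null and 19.7 to 123.5 in hypoxic wild type. It read 13.4 to 16.3 in adeno-treated and 12.3 to 16.6 in untreated normoxic cells, and was not tested. All its hypoxic values lay above all its normoxic ones, as in 2.63% of all probe sets tested. Ramp1, a partner of Calcrl, averaged 255 ± 50.9 on arrays labelled null, 248 ± 97.5 in hypoxic wild type (SD, n = 3 each), 250 ± 24.7 in adeno-treated and 193 ± 25.0 in untreated normoxic cells (SD, n = 2 each). Neither it, nor both Nrp1 probe sets (means 41.7 and 58.7), nor Epor (mean 40.2), the erythropoietin receptor, passed in any comparison with or without the block.

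The other genes of the same pathways are given by list. Of 35 listed vascular ligands and receptors, 29 had a probe set and 23 probe sets of 17 genes were tested. In limma 0 were called in hypoxic wild type or in cells labelled null against adeno-treated normoxic cells, with medians of 0.07 and 0.05 (log2), against -0.02 and 0.01 over all probe sets. That fit called 0.322% of all probe sets higher in wild type and 0.349% in cells labelled null (0.0134% and 0.0939% lower). With the block 1 was called higher and 1 lower in wild type (median 0.40, against -0.0014 over all probe sets, of which 1.48% were called higher and 0.725% lower). In cells labelled null it was 3 higher and 1 lower (median 0.35, against 0.029 over all probe sets, of which 2.94% were called higher and 2.87% lower). Pdgfa, a growth factor for mesenchymal cells, read 837.4, 678.8 and 766.1 on arrays labelled null and 823.5, 715.4 and 784.2 in hypoxic wild type, against 423.2 and 380.6 in adeno-treated and 470.6 and 532.1 in untreated normoxic cells. All 6 hypoxic values of Pdgfa lay above all 4 normoxic ones, as in 2.63% of all probe sets tested. Pdgfa rose with the block by 0.90 in cells labelled null and 0.93 in wild type (limma adjusted p = 0.00922 and 0.0110). The call was lost without either adeno-treated array in both groups, and in wild type also without its number 1 or 2, at a limma adjusted p of up to 0.108 in cells labelled null and 0.148 in wild type. Plaur, the urokinase receptor, rose by 1.49 with the block in cells labelled null (limma adjusted p = 0.00395), where it read 879.6, 505.5 and 249.3, against 350.9 and 184.3 in adeno-treated cells; only the number 3 array lay within the normoxic range. Its call was lost without adeno-treated number 2 (limma adjusted p = 0.0584). The 2 Angptl4 probe sets disagreed in cells labelled null, with changes of 1.71 and -1.24 (limma with block, adjusted p = 0.0414 and 0.00677). No direction is therefore given for this lipase inhibitor. The first call was lost under 9 of 11 omissions and the second under 1. The first probe set read 78.8 and 14.4 in adeno-treated cells, 134.1 and 97.7 in untreated cells and 102.3 to 184.1 on arrays labelled null. The second read 122.5 to 279.8 on the 6 hypoxic arrays and 463.6 to 521.9 on the 4 normoxic arrays. It was also called lower in wild type, by -0.90 (limma with block, adjusted p = 0.0382), a call lost under 5 of 11 omissions. Against all 4 normoxic arrays with the block, Tgfb1, a growth factor for many cell types, was also called, by 2.47 in cells labelled null and 1.75 in wild type (limma adjusted p = 0.00209 and 0.0165). It read 296.8, 150.5 and 65 on arrays labelled null and 206.4, 167.5 and 15.2 in hypoxic wild type, against 110.3 and 96.9 in adeno-treated and 15.5 and 15.9 in untreated cells. Hypoxic and normoxic Tgfb1 values thus overlapped through the number 3 arrays, and the wild-type call was lost without either adeno-treated array or the wild-type number 1 or 2 (limma adjusted p up to 0.121).

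Of 16 genes of the adrenomedullin and vasodilator list, 13 had a probe set and 3 were tested. The call in this list was Nppb, which encodes a natriuretic peptide that widens vessels. It read 190.4, 212.9 and 174.7 on arrays labelled null, 103, 80.9 and 36.6 in hypoxic wild type, 25.4 and 35.6 in adeno-treated and 36.3 and 23.1 in untreated normoxic cells. Every array labelled null was above every other array, and Nppb rose there by 2.50 against adeno-treated cells (SE 0.39, limma adjusted p = 0.0287; 2.73 and 0.00215 with the block). In that comparison 0.349% of all probe sets were called higher, and 2.94% with the block. How many probe sets set the arrays labelled null above every other array was not counted. Without the block the call was lost when any 1 normoxic array, any 1 array labelled null or the wild-type number 2 was left out (limma adjusted p up to 0.245); with the block it held under every omission, at a highest limma adjusted p of 0.0287. Against all normoxic arrays with the block Nppb was also called higher in wild type, by 1.32 (limma adjusted p = 0.0256), a call lost without adeno-treated number 1, untreated number 2 or the wild-type number 1 or 2 (up to 0.129). It did not pass between arrays labelled null and hypoxic wild type with or without the block.

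Of 20 genes of the erythropoietin list, 17 had a probe set, and 16 probe sets of 14 genes were tested. In limma 0 were called in either hypoxic group against adeno-treated cells (median 0.03 in wild type and 0.05 in cells labelled null). Over all probe sets 0.322% were called higher and 0.0134% lower in wild type, and 0.349% and 0.0939% in cells labelled null. With the block the list had 1 higher in wild type (all probe sets: 1.48% higher, 0.725% lower). In cells labelled null it had 2 higher and 1 lower (2.94% and 2.87%). With the block Hmox1, heme oxygenase, rose by 0.98 in cells labelled null and by 0.68 in wild type (limma adjusted p = 0.00295 and 0.0244). It read 1388.9, 2120.4 and 2040 on arrays labelled null and 1069.2, 1725.4 and 1718.9 in hypoxic wild type, against 667.9 and 1099.2 in adeno-treated and 669.3 and 894.9 in untreated normoxic cells. Of the hypoxic values only that of wild-type number 1 lay within the normoxic range. In cells labelled null Gata2, a transcription factor of blood precursors, rose by 0.80 and Igf1 fell by 0.69 with the block (limma adjusted p = 0.0469 and 0.0144). The Hmox1 call in cells labelled null held under every omission (highest limma adjusted p = 0.0360). In wild type it was lost without both hypoxic number 3 arrays (limma adjusted p = 0.0631) and without either adeno-treated array, any 1 wild-type array or the null-labelled number 2 or 3 (up to 0.158). The Gata2 call was lost under all 11 omissions (limma adjusted p 0.0544 to 0.243), and the Igf1 call without either adeno-treated array or the null-labelled number 2 (up to 0.113). Against all normoxic arrays with the block Stat5b, a signalling protein downstream of the erythropoietin receptor, was called higher by 1.05 in cells labelled null (limma adjusted p = 0.0283), a call lost under 7 of 11 omissions, among them that of both hypoxic number 3 arrays (0.0622). It read 70.8, 93.3 and 108.4 on arrays labelled null, against 55 and 51.4 in adeno-treated and 24.1 and 24.4 in untreated normoxic cells. Against adeno-treated cells alone Stat5b was not called.

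Of 14 HIF regulators, 11 had a probe set and 10 probe sets of 9 genes were tested, with 0 called in limma in any of the comparisons between 2 groups. In those comparisons 0% to 0.349% of all probe sets were called higher and 0% to 0.0939% lower. Egln1, the main oxygen-sensing enzyme that marks HIF alpha subunits for destruction, read 247.5, 281.3 and 409.2 on arrays labelled null and 674.4, 710.9 and 724 in hypoxic wild type, against 307.8 and 380.7 in adeno-treated and 257.3 and 382.4 in untreated normoxic cells. The wild-type values were above all others and those labelled null overlapped normoxia. How many probe sets set the hypoxic wild-type arrays above all others was not counted. With the block Egln1 was lower by -1.19 in cells labelled null than in hypoxic wild type (limma adjusted p = 0.0352), where 0.0939% of all probe sets were called lower. It was higher by 0.91 in hypoxic wild type than in adeno-treated cells (limma adjusted p = 0.0346), where 1.48% were called higher. The first of these calls was lost without both hypoxic number 3 arrays (limma adjusted p = 0.0595) and without any 1 array other than the null-labelled number 1, at a limma adjusted p of up to 0.213, while the difference lay between -1.38 and -1.05. The second was lost without either adeno-treated array or the wild-type number 1 or 2 (limma adjusted p up to 0.217). Hif1a, on the same list, is given above. Against all normoxic arrays with the block Cited2, a HIF-induced inhibitor of HIF activity, was called higher by 0.51 in wild type (limma adjusted p = 0.0207) and Egln2, a relative of Egln1, lower by -0.65 in cells labelled null (limma adjusted p = 0.0398). Each of these was lost under 9 of 11 omissions, that of both hypoxic number 3 arrays included (limma adjusted p = 0.0529 and 0.0675). In the fit with the block Adm, Vegfa and Pgf did not differ past the threshold between the hypoxic groups.

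**Figure D4:**
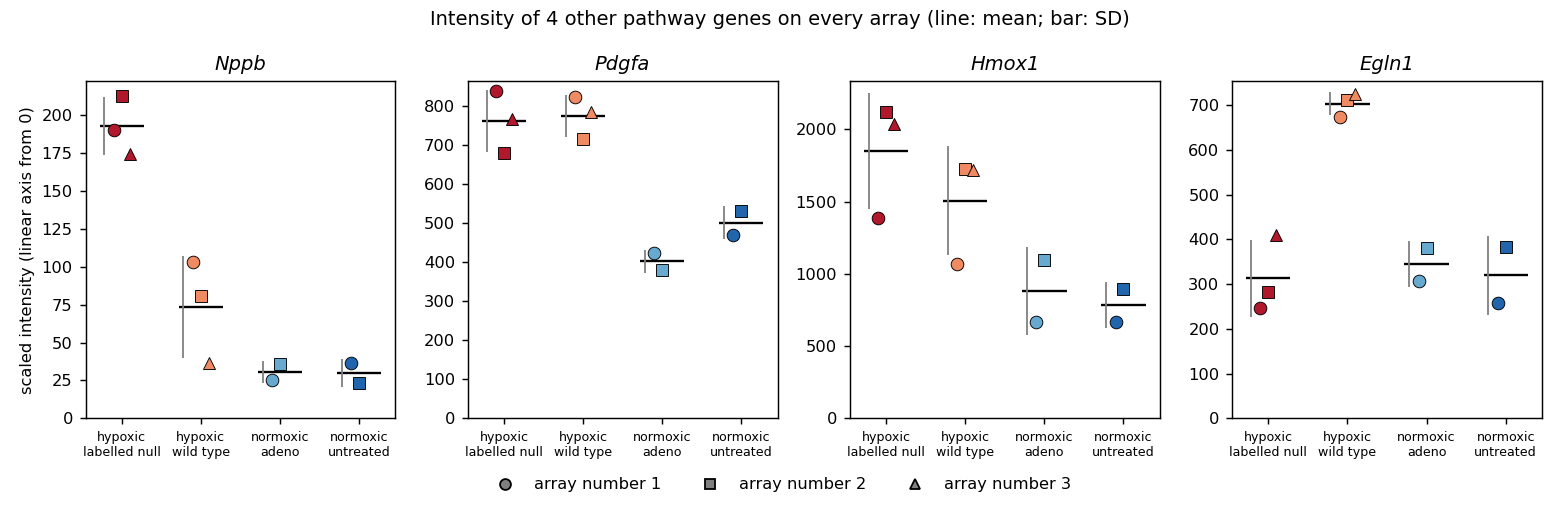
Scaled intensity (linear axes from 0) of Nppb, Pdgfa, Hmox1 and Egln1 on each array by group; symbols give the array number, horizontal lines group means and grey bars SD. Nppb is highest on the 3 arrays labelled null (174.7 to 212.9), Egln1 on the 3 hypoxic wild-type arrays (674.4 to 724), and Pdgfa is higher on all 6 hypoxic arrays than on all 4 normoxic arrays.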

How the data were processed

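Total RNA of 10 mouse hepatocyte samples was measured on 1-colour oligonucleotide arrays of 12488 probe sets. The deposited values are intensity on a linear scale, scaled by the authors: the mean of the values left after trimming at the 2nd and 98th percentile, computed here, lay between 199.6 and 199.955 on every array. Earlier steps are not given in these sources. Without further scaling, log2 was taken after adding 4.7, the 10th percentile over all arrays and probe sets, so folds are on the scale of value plus 4.7 and understate changes of dim probe sets. The 66 controls and probe sets with a mean over all arrays under its 40th percentile (40.1) were left out. The other 7453 were fitted with limma 3.58.1 in R 4.3.3 (4 group means, eBayes with intensity trend), 2-sided, adjusted by Benjamini-Hochberg over all of them. Permutation tests used scipy 1.17.1 and were exact. The fit was tested on simulated data.

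Groups came from the sample labels, and genes from the platform annotation (10855 probe sets with 1 symbol, 396 with several, 1237 with none). Arrays of the same number correlated in their deviations from group means in all 13 pairs (r from 0.103 to 0.677), so the number was taken as pairing them and the block (4 residual degrees of freedom) is given where it changes a call. The members, lists, tests and named-gene rule (the members, listed receptors, list genes past the threshold, and the 5 genes of highest r) were chosen with earlier results of these data known. Promoters are RefSeq, and all 4 genes matched. Alternatives were other offsets, normalizations, filters, fits and omitted arrays; omissions with the block or for list genes, and quantile normalization with the block, were chosen after seeing the data. Precision is limited by how many arrays there were.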

Additional observations from a re-analysis of the deposited data

How the results depend on the processing

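Adm kept its call in both hypoxic groups under every alternative, with changes from 4.39 to 4.96 in wild type and from 4.23 to 4.72 in cells labelled null against adeno-treated cells. With only the groups compared in the fit, 1 of the 4 probe sets (Adm) instead of 2 was called in wild type and 1 in cells labelled null; over all probe sets that fit called 6 and 10 higher instead of 24 and 26, and 0 and 0 lower. The replicate block called 110 higher and 54 lower in wild type (24 and 1 without it) and 219 and 214 in cells labelled null (26 and 7 without it); among the 4 genes it changed the call of Vegfa against adeno-treated cells and no other call. Leaving out 1 array gave 1 to 3 called in wild type and 1 to 2 in cells labelled null against adeno-treated arrays, 1 to 3 in each against all normoxic arrays, 0 between the hypoxic groups and 0 between the normoxic groups. The Vegfa minus Pgf difference was -0.90 (adjusted p = 0.0286) without both hypoxic number 3 arrays; over single omissions it lay between -0.43 and 0.18, with 0.18 without the null-labelled number 1 and 0.12 without the wild-type number 1.

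Changes near 0 turned sign. Between the hypoxic groups Pgf was -0.043 with arrays centred on their medians, and over omitted arrays Pgf lay between -0.34 and 0.45, Vegfa between -0.58 and 0.37 and Epo between -0.39 and 0.16. Against adeno-treated cells Epo in cells labelled null was 0.066 with the block and 0.043 without both hypoxic number 3 arrays, and it lay between -0.058 and 0.043 over single omissions; in wild type it lay between -0.18 and 0.38. Between the normoxic groups Vegfa lay between -0.20 and 0.046. The cause was not tested. A group of 2 left with 1 array was assumed to vary like the other groups.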
